A study of Homo sapiens with 16 samples.

Results

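Genes of the short arm of human chromosome 8 (8p), from ERICH1 to RHOBTB2, were listed in map order because RNA of the stretch was higher in HAP1 cells with a deletion of SLC30A10 than in their control cells. The list holds 60 of the 33121 entries of the count table. A mean of at least 10 counts over all 16 libraries was reached by 49 of the 60, and these 49 are called the 8p genes. The same 49 also had a mean of at least 10 counts over the 12 libraries other than the SLC30A10 knockout, so none was kept through that group alone. The stretch runs on chromosome 8 of GRCh38 from 614746, the lower coordinate of ERICH1, to 23020199, the upper coordinate of RHOBTB2. It spans 22.4 Mb. Since the difference between the SLC30A10 knockout and its control set chose the genes, values of that difference are a description, and nothing is supported with them.

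The stretch serves no single pathway. Its genes encode proteins of RNA processing, the lysosome, the centrosome, lipid metabolism and signalling, and several of them, such as DLC1, TUSC3, MTUS1 and LZTS1, have been studied as candidate tumour suppressors because 8p is often lost in carcinomas. RNA levels of neighbouring genes can move together when the dosage of a chromosome segment differs, while genes under strong regulation need not follow. HAP1 is a near-haploid line derived from the chronic myeloid leukaemia line KBM-7, so most of its genes have no second allele. DNA was not analysed here, and the copy number of 8p was not tested.

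All cells were HAP1, grown in IMDM with fetal bovine serum, and RNA was selected by its poly-A tail and read in pairs on a DNA nanoball platform. The 4 groups had 4 libraries each: the SLC30A10 knockout (genotype SLC30A10_delta), the SLC30A10 control set (SLC30A10+/+), a deletion of a different gene (here the second knockout), and the wild-type cells grown alongside it (here the second control set). SLC30A10 encodes a manganese exporter. One cell line identifier covers the cells of both control sets, and each knockout has an identifier of its own. The labels do not say how many clones, cultures or days stand behind the 4 libraries of a group, so p-values measure the spread between these libraries, which may be technical.

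Libraries held 16058856 to 16648151 counts, and a tested gene varied little between libraries of a group (common biological coefficient of variation 0.0497). The SLC30A10 gene itself had 6 to 9 counts in its control set and 3 to 11 in the knockout, which is 0.472 ± 0.0774 against 0.418 ± 0.217 CPM (counts scaled to a library size of 1000000, mean ± SD, n = 4). Its RNA was too low for the test and does not check the deletion. Of 6 haematopoietic markers, 5 (PTPRC, SPI1, GATA1, CD33 and ITGAM) had at most 3 counts in every library. The summed level of 5 mesenchymal markers was 389 to 402 CPM in the SLC30A10 knockout, 639 to 696 in its control set, 539 to 694 in the second knockout and 446 to 589 in the second control set. Most of that sum is VIM, with a mean of 357 CPM in the SLC30A10 knockout and 630 in its control set, while THY1 went the other way, from 1.67 CPM in the control set to 3.93. The summed level of 5 epithelial markers was 56.7 to 64.1 CPM in the SLC30A10 knockout, 47.8 to 55.5 in its control set, 37.0 to 40.4 in the second knockout and 46.6 to 51.5 in the second control set. Most of the epithelial sum is KRT18, with a mean of 51.2 CPM in the SLC30A10 knockout and 42.7 in its control set. KRT8 went the same way, with 9.68 against 7.54 CPM. EPCAM went the other way, from 1.22 CPM in the control set to 0.263, CDH1 had at most 5 counts in any library, and KRT19 had 0. The part of these markers in the results below was not tested.

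RNA of the 8p genes stood about 2-fold higher in every SLC30A10 knockout library than in any other group. Set against the mean of the SLC30A10 control set, the median of the 49 genes was 1.90, 2.02, 1.98 and 1.99 in knockout replicates 1 to 4. Each SLC30A10 control library was set against the mean of the rest of its set. The SLC30A10 control libraries lay at 0.988 to 1.02, the second knockout at 0.985 to 1.03 and the second control set at 0.993 to 1.05. The 4 knockout libraries thus formed a narrow band that no library of the other 3 groups reached. Summed over the 49 genes, the level was 4713 to 4782 CPM in the SLC30A10 knockout, 2345 to 2384 in its control set, 2381 to 2496 in the second knockout and 2415 to 2492 in the second control set.

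**Figure D1:**
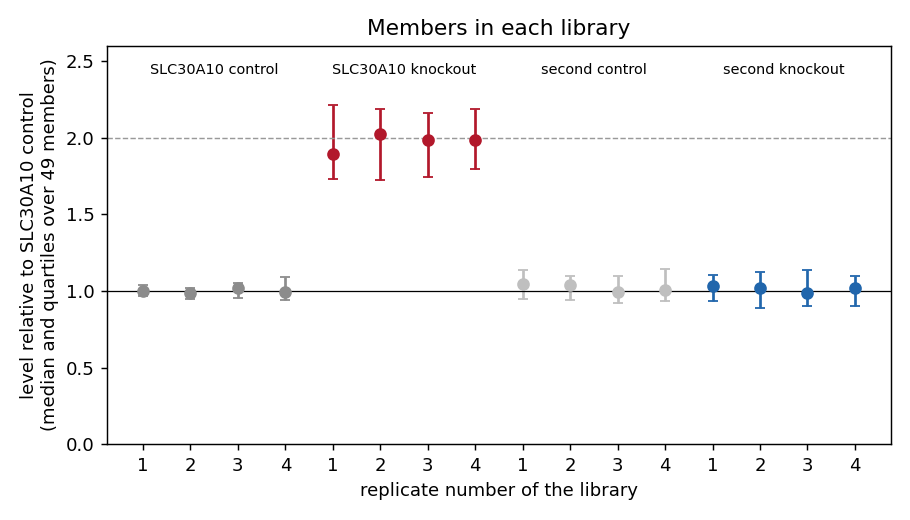
Level of the 49 genes of 8p (members) in each library relative to the mean of the SLC30A10 control set, by group and replicate, with points at the median and bars at the quartiles over genes. Each SLC30A10 control library is set against the mean of the rest of its set. The medians of the 4 SLC30A10 knockout libraries sit between 1.90 and 2.02 and those of the 12 other libraries between 0.985 and 1.05.

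Gene by gene, the median log2 fold change in the SLC30A10 knockout was 1.01, with the middle 50% of genes between 0.81 and 1.13 and the extremes at -1.19 and 2.71. The median over all 15569 tested genes was 0.00. By edgeR's quasi-likelihood test with Benjamini-Hochberg adjustment over all tested genes, 44 of the 49 were higher and 2 were lower at an adjusted p under 0.05. Across all tested genes 21.2% were higher and 20.2% lower, but the choice of the genes fixes their count and nothing is read from it. A fold between 1.5 and 2.5 was found for 34 of the 49, against 4.73% of all tested genes. Of the others, 6 lay at 2.5-fold or above, 4 between 1 and 1.5, and 5 below 1. A fold of 2 or more was found for 25 of the 49, against 2.33% of all tested genes. Without overlap with the SLC30A10 control libraries, 44 genes were above and 2 below, where 19.7% and 18.6% of all tested genes were. The level in all 4 knockout libraries was above all 12 other libraries for 43 genes, a pattern met by 8.07% of all tested genes. LPL was the 1 gene below all 12, a pattern met by 7.48% of all tested genes, and DLC1, BIN3, PPP1R3B, GATA4 and EGR3 overlapped with the 12.

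**Figure D2:**
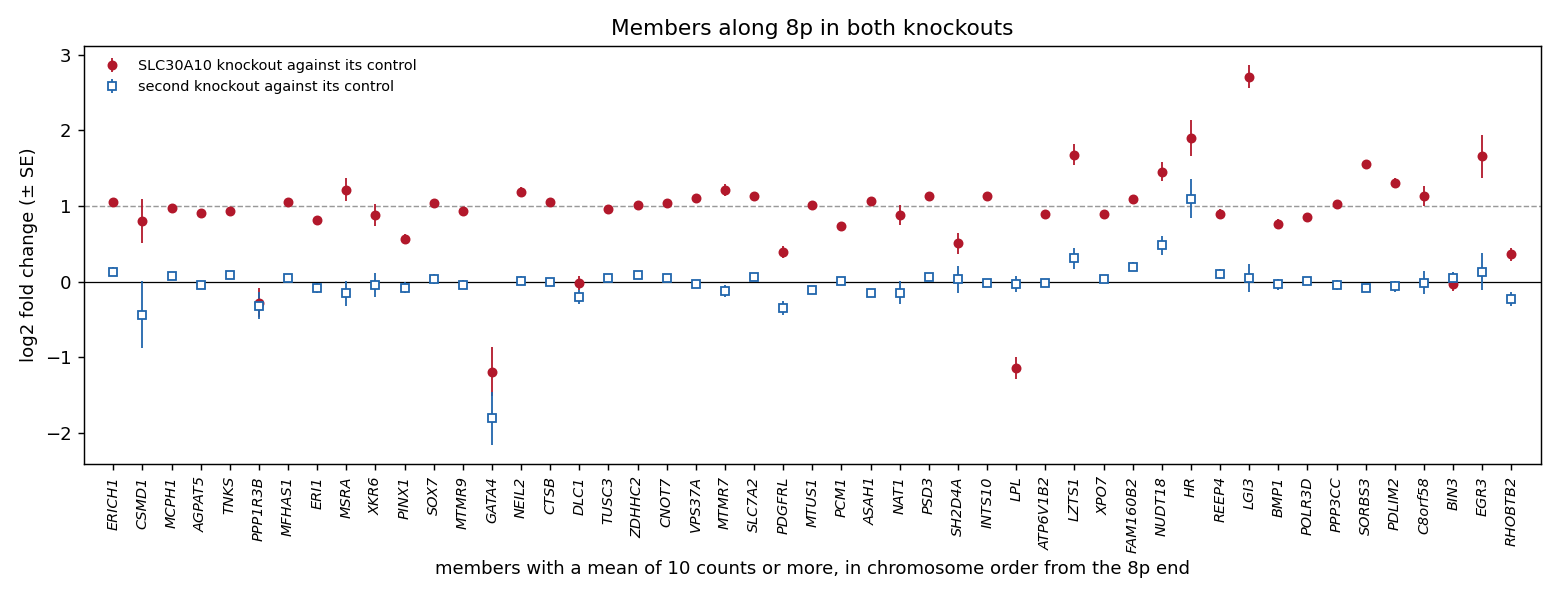
Log2 fold change ± SE of each of the 49 genes (members) in map order, for the SLC30A10 knockout (filled circles) and the second knockout (open squares), each against its own control set, with dashes at 1. Most SLC30A10 values lie near 1, with LPL and GATA4 below -1 and LGI3 at 2.71, and most second knockout values lie near 0, with GATA4 at -1.81 and HR at 1.10.

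By mean count, the 49 genes fell into 3 blocks. In the 28 genes whose mean count reached 500, all were higher, the median fold was 2.02 and 26 lay between 1.5 and 2.5, with PINX1 (1.48-fold) and SORBS3 (2.95-fold) outside. Their median standard error was 0.05 on the log2 scale. Of 9 genes with 100 to 500 counts, 4 lay between 1.5 and 2.5-fold, with a median fold of 1.69 and a median standard error of 0.08. Among 12 genes with 10 to 100 counts the median log2 fold change was 0.88, the range was -1.19 to 2.71, and the median standard error was 0.15. By position, only 2 genes, ERICH1 and CSMD1, lay in the first 5 Mb of the chromosome, with a median of 0.92. CSMD1 had a mean of only 14.7 counts. The 17 genes with a lower coordinate past 20 Mb had a median of 1.09. The rank correlations of the 49 log2 fold changes with map order, exon length, mean count and level per kb were 0.22, 0.05, 0.08 and 0.06 over n = 49 genes that share the same libraries, all weak.

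The reference changed single genes more than the whole. Against the second control set the median ratio of mean levels was 2.02, and 37 of the 49 genes lay between 1.5 and 2.5. PINX1 stood at 1.48 times its SLC30A10 control set and at 2.17 times the second control set, and SH2D4A at 1.42 and 2.14 times. LZTS1 moved the other way, with 3.21 times the first and 2.09 times the second reference. EGR3 went from 3.17 to 1.31 times and LGI3 from 6.58 to 4.57 times.

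All 9 genes of the nucleus and of RNA processing were higher in the SLC30A10 knockout, with a median log2 fold change of 0.93 and a range of 0.57 to 1.19. XPO7, a nuclear transport receptor, had the highest level per kb of exon of the 49 genes, 39.9 CPM per kb over all libraries. Its level was 402, 416, 411 and 401 CPM in the knockout and 216, 217, 223 and 220 CPM in the SLC30A10 control set, listed from replicate 1 to 4. In the second knockout it was 224 to 250 CPM and in the second control set 228 to 245 CPM. The log2 fold change was 0.90 ± 0.04 (SE).

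CNOT7, a catalytic deadenylase subunit of the CCR4-NOT complex that shortens poly-A tails, was at 406, 410, 406 and 407 CPM in the knockout. The SLC30A10 control libraries held 198, 195, 204 and 196 CPM, so the groups were far apart and each was tight. The second knockout (198 to 217 CPM) and the second control set (197 to 210 CPM) matched the first control set in range. INTS10, a subunit of the Integrator complex that cleaves nascent RNA, went from 58.2 ± 0.916 to 127 ± 2.33 CPM. POLR3D, a subunit of RNA polymerase III, went from 62.2 ± 4.54 to 112 ± 2.00 CPM. NEIL2, a glycosylase of base excision repair, had the largest log2 difference of the 9, 1.19 ± 0.06, and PINX1, an inhibitor of telomerase, the smallest, 0.57 ± 0.06.

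Lysosomal and membrane traffic genes lay in a narrower range, 0.89 to 1.11 on the log2 scale, with all 6 higher and a median of 1.06. CTSB, the lysosomal protease cathepsin B, was at 262, 235, 259 and 247 CPM in the knockout and at 115, 123, 120 and 126 CPM in its control set. ASAH1, the acid ceramidase, went from 59.4 ± 1.79 to 124 ± 2.89 CPM, and ATP6V1B2, a subunit of the proton pump that acidifies lysosomes, from 103 ± 2.29 to 191 ± 6.67 CPM. No library of either group overlapped with the other for these 3 genes. VPS37A, a subunit of the ESCRT-I sorting complex, had a log2 fold change of 1.11 ± 0.05. Its gene body overlaps that of MTMR7 on the other strand by 36662 bp, and since use of strand in counting is not given in the sources used here, reads of the pair cannot be told apart there. MTMR7 had 1.21 ± 0.07.

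In the group of lipid, sugar and other metabolism, 7 of 9 genes were higher, LPL was lower, and PPP1R3B did not pass the threshold. AGPAT5, an acyltransferase of phospholipid synthesis, was at 228, 235, 230 and 230 CPM in the knockout and at 124, 122, 127 and 120 CPM in the control set. TUSC3, a subunit of the oligosaccharyltransferase that attaches sugars to asparagine, was at 127, 136, 127 and 134 against 65.5, 68.0, 67.9 and 67.4 CPM. Both genes were thus nearly 2-fold higher in each knockout library. MSRA, which repairs oxidised methionine, had a log2 fold change of 1.22 ± 0.15 from 2.56 ± 0.183 CPM, and NAT1, an arylamine acetyltransferase, 0.88 ± 0.13 from 3.90 ± 0.599 CPM.

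Of 10 genes of the centrosome and cytoskeleton, 8 were higher, with log2 fold changes from -0.04 to 1.68. REEP4, which keeps endoplasmic reticulum off mitotic chromosomes, was at 127, 117, 130 and 128 CPM in the knockout and at 64.1, 67.9, 75.1 and 63.0 CPM in the control set. PCM1, a scaffold of centriolar satellites, was less than 2-fold higher, at 291 ± 11.1 against 175 ± 4.63 CPM. MTUS1, a microtubule-associated protein, was at 146 ± 4.75 against 72.6 ± 3.22 CPM. PSD3, an exchange factor for ARF6, had a log2 fold change of 1.13 ± 0.06. The other 6, SORBS3, PDLIM2, LZTS1, DLC1, BIN3 and RHOBTB2, are given below.

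Of the 5 ligands, receptors and signalling genes, all were higher, with a median log2 fold change of 0.76. PPP3CC, a catalytic subunit of the phosphatase calcineurin, was at 56.9, 56.1, 54.8 and 59.7 CPM in the knockout and at 27.3, 27.3, 27.3 and 29.8 CPM in the control set. BMP1, a secreted metalloprotease that processes procollagen, was at 46.9, 42.6, 45.0 and 48.6 against 25.2, 28.7, 28.4 and 26.1 CPM, a smaller step. Among the transporters and membrane proteins, SLC7A2, a carrier of cationic amino acids, was at 234, 233, 234 and 237 CPM against 103, 107, 112 and 108 CPM. XKR6, of the XK-related family, was at 8.82, 8.20, 11.2 and 9.09 against 6.03, 4.67, 5.49 and 4.02 CPM. SLC7A2 and XKR6 differ widely in level and were both near 2-fold. Of the genes with no assigned role, MFHAS1 was at 91.7, 94.3, 95.5 and 95.6 CPM against 45.2, 46.3, 44.9 and 46.0 CPM, and ERICH1 at 59.4, 70.2, 64.5 and 70.0 against 33.2, 33.0, 31.5 and 30.1 CPM.

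The 4 transcription factor genes each behaved in their own way. SOX7, a SOX family factor of endothelium and endoderm, was at 31.7, 36.2, 35.0 and 33.9 CPM in the knockout, against 16.6, 16.7, 17.0 and 16.6 CPM in its control set and at most 18.8 CPM in any library outside the SLC30A10 knockout. EGR3, an immediate early zinc finger factor, was at 2.73, 2.67, 2.33 and 2.49 CPM in the knockout. Its SLC30A10 control libraries lay at 0.975, 1.03, 0.732 and 0.488 CPM, below the knockout. The second control set (1.41, 1.58, 2.41 and 2.43 CPM) and the second knockout (1.12, 1.59, 3.09 and 2.72 CPM) reached into the range of the SLC30A10 knockout. HR, a nuclear corepressor, and GATA4, a factor of heart and endoderm, differed in both knockouts and are described with the second knockout.

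LPL, lipoprotein lipase, had the lowest log2 fold change once genes under a mean of 50 counts were set aside. The knockout held 3.42, 2.55, 2.15 and 2.05 CPM and the control set 5.73, 5.16, 5.85 and 5.79 CPM. All 4 knockout libraries were below all others, which reached 8.49 CPM, and the log2 fold change was -1.15 ± 0.14. PPP1R3B, which targets protein phosphatase 1 to glycogen, was at 2.61, 3.17, 3.00 and 2.74 CPM in the knockout and at 4.63, 2.79, 2.44 and 4.15 CPM in the control set. The groups overlapped, and the control libraries were spread widely. Its log2 fold change was -0.28 ± 0.19, and with both control sets pooled as the reference it was -0.45. The sign for PPP1R3B was kept under every alternative processing given below, but whether it passed the threshold was not.

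DLC1, a candidate tumour suppressor, was flat. It was at 19.5, 18.2, 16.6 and 18.1 CPM in the knockout and at 18.5, 18.4, 16.8 and 19.6 CPM in the control set, a log2 fold change of -0.02 ± 0.10. Its libraries overlapped with those of all other groups, which ranged from 16.2 to 24.1 CPM. BIN3, a membrane-bending adaptor of the BAR family, was flat as well, at 13.1, 13.4, 13.7 and 13.6 CPM against 12.7, 15.5, 13.8 and 13.2 CPM (-0.04 ± 0.08). Among tested genes, BIN3 lies between CCAR2, which stood far above both control sets, and EGR3, which overlapped with the second control set. Both are described with the border of the stretch. The mean counts of DLC1 and BIN3 were well above the filter, and a 2-fold step at their standard errors would have stood clear of the spread.

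RHOBTB2, the last gene of the list, was at 17.1, 16.7, 19.6 and 18.7 CPM in the knockout. Its control libraries lay at 14.3, 13.8, 14.7 and 13.4 CPM, so the groups did not overlap, but the log2 fold change was only 0.36 ± 0.09. PDGFRL, a receptor-like extracellular protein, and SH2D4A, an SH2 domain adaptor, were also low against the SLC30A10 control set, with 0.39 ± 0.08 and 0.51 ± 0.14. PINX1, given above, was low there as well. Against the second control set SH2D4A and PINX1 were a little over 2-fold, as given above.

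Above the common level, against the SLC30A10 control set, stood LGI3, LZTS1, SORBS3, NUDT18 and PDLIM2. They were the 5 highest by log2 fold change at a mean of 50 counts or more. LGI3, a secreted leucine-rich repeat protein, was at 8.95, 7.77, 8.77 and 6.97 CPM in the SLC30A10 knockout and at 1.64, 1.03, 1.16 and 1.10 CPM in the control set, a log2 fold change of 2.71 ± 0.15. No library of the other 3 groups went above 2.18 CPM. LZTS1, a leucine zipper protein, was at 7.02, 6.90, 8.09 and 8.09 against 2.31, 2.49, 2.01 and 2.56 CPM (1.68 ± 0.14). Against the second control set LZTS1 was near the common level, as given above. SORBS3, the focal adhesion protein vinexin, was at 442, 444, 496 and 457 against 152, 158, 162 and 152 CPM (1.56 ± 0.04). SORBS3 was among the most abundant of the 49 per kb of exon, with 38.1 CPM per kb, and its standard error was small beside its distance from 1. NUDT18, a hydrolase of oxidised nucleotides, was at 11.2, 11.8, 11.3 and 11.5 against 5.73, 4.13, 3.29 and 3.60 CPM (1.45 ± 0.12). Against the second control set, whose libraries are listed with the second knockout, NUDT18 was also nearer the common level. PDLIM2, a PDZ and LIM domain adaptor, was at 61.5, 60.5, 66.5 and 63.0 against 24.9, 24.3, 26.2 and 26.0 CPM (1.31 ± 0.07).

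**Figure D3:**
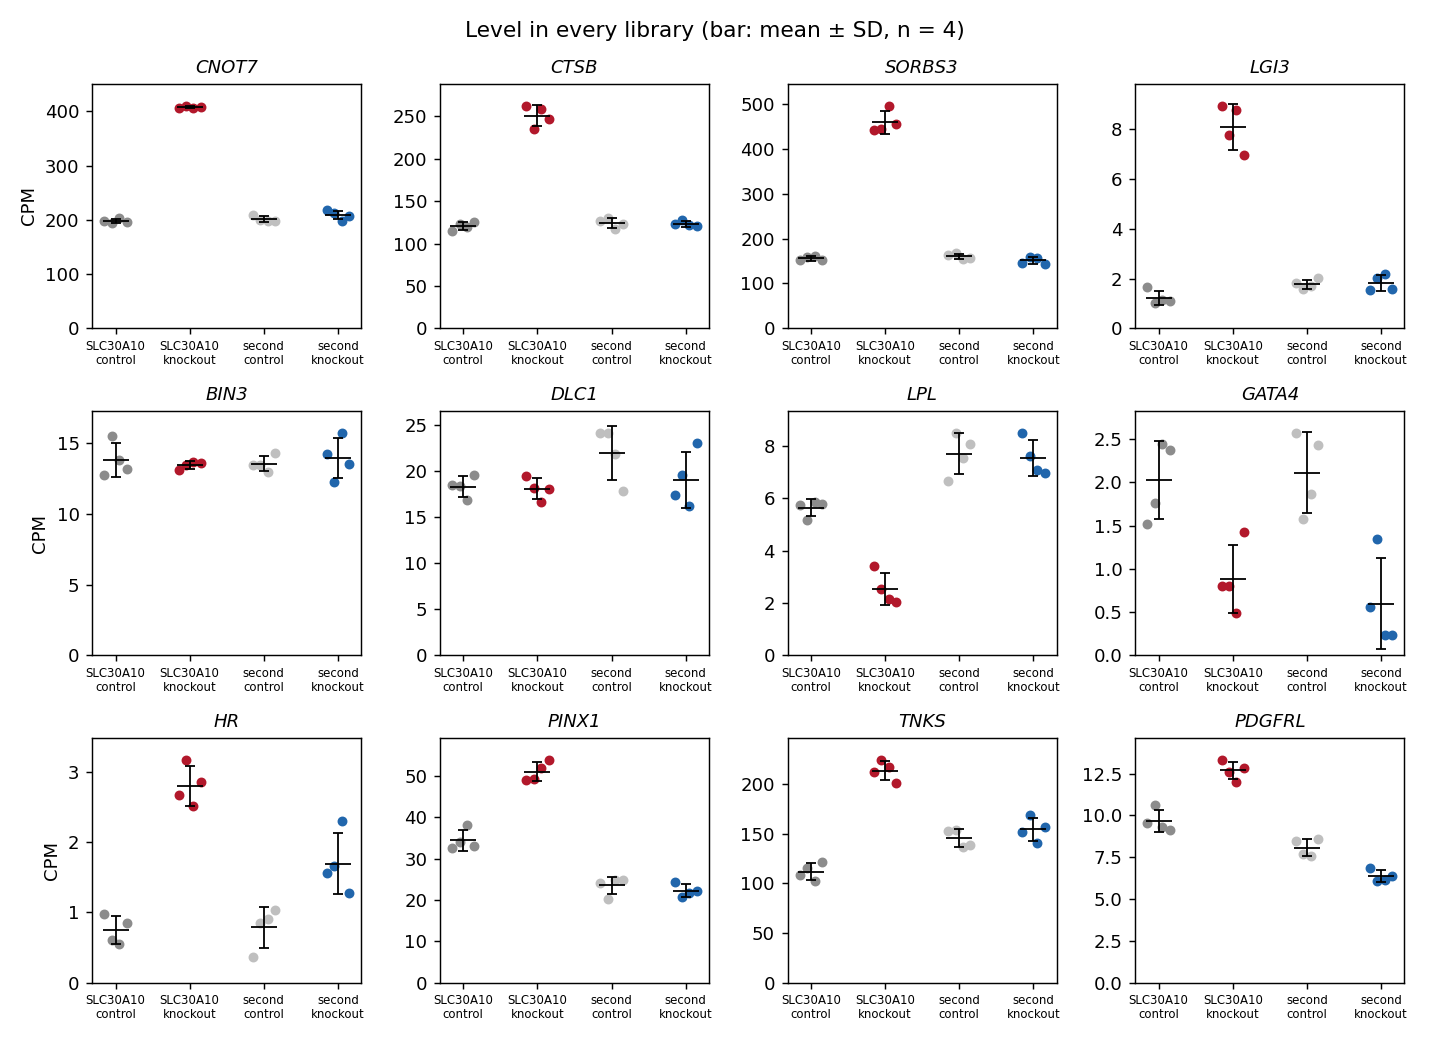
Level in CPM of 12 genes of 8p in each library (points) of the 4 groups, with bars for mean ± SD (n = 4) and each axis starting at 0. BIN3 and DLC1 overlap across groups, LPL is lowest in the SLC30A10 knockout, GATA4 is lower in each knockout than in its control set, and LGI3 and SORBS3 are highest in the SLC30A10 knockout.

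From the end of the arm to RHOBTB2 lie other genes that the list leaves out, some before ERICH1, where the stretch begins. The test covered 26 of them, and 22 were higher and 1 lower in the SLC30A10 knockout, where 21.2% and 20.2% of all tested genes were, with a median log2 fold change of 0.96. The stretch was picked on this same comparison, so nothing is read from that count. At a mean of 50 counts or more, the 3 highest were CCAR2 (1.49), SGK223 (1.35) and DMTN (1.13), and the 3 lowest were KIAA1456 (-0.67), ZNF596 (-0.10, adjusted p = 0.597 in edgeR's quasi-likelihood test) and FAM86B1 (0.54). The first genes of the arm were mixed: LOC101927506 had -0.35, RPL23AP53 1.03, ZNF596 -0.10 and FBXO25 0.95. Of the 4, LOC101927506 and ZNF596 did not pass the threshold.

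The list was set to end at RHOBTB2, and around this border the values fell within a few genes, starting before RHOBTB2 itself. Before it, PPP3CC (1.03), SORBS3 (1.56), PDLIM2 (1.31) and C8orf58 (1.13) were followed by CCAR2, which lies at chromosome 8, 22604757 to 22621514. CCAR2, a nuclear protein that inhibits the deacetylase SIRT1, was at 197 ± 11.7 CPM in the control set and at 554 ± 7.03 CPM in the knockout, which is 2.8-fold. BIN3 (22620418 to 22669121, minus strand) overlaps it tail to tail by 1097 bp, and reads in that overlap cannot be told apart without strand. BIN3 had -0.04, EGR3 1.65 and RHOBTB2 (22950813 to 23020199) 0.36. For EGR3 the SLC30A10 control set was itself low, at -1.27 ± 0.30 on the log2 scale against the second control set. CCAR2 was thus the last gene of the stretch at least 2-fold above both control sets. TNFRSF10B, a TRAIL receptor whose lower coordinate is 23020133 and which overlaps RHOBTB2 by 67 bp, had -0.04. TNFRSF10D and TNFRSF10A, of the same receptor family, had -0.44 and -0.03, CHMP7 0.14 and R3HCC1 -0.09.

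Past the border the level of the stretch was gone. Of the first 20 tested genes after RHOBTB2, 2 were higher and 8 lower, with a median log2 fold change of -0.12. The 93 tested genes of the rest of 8p had a median of -0.04, with 20 higher and 27 lower. The 308 tested genes of the long arm had -0.02, with 59 higher and 74 lower, which is close to the 21.2% and 20.2% of all tested genes.

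**Figure D4:**
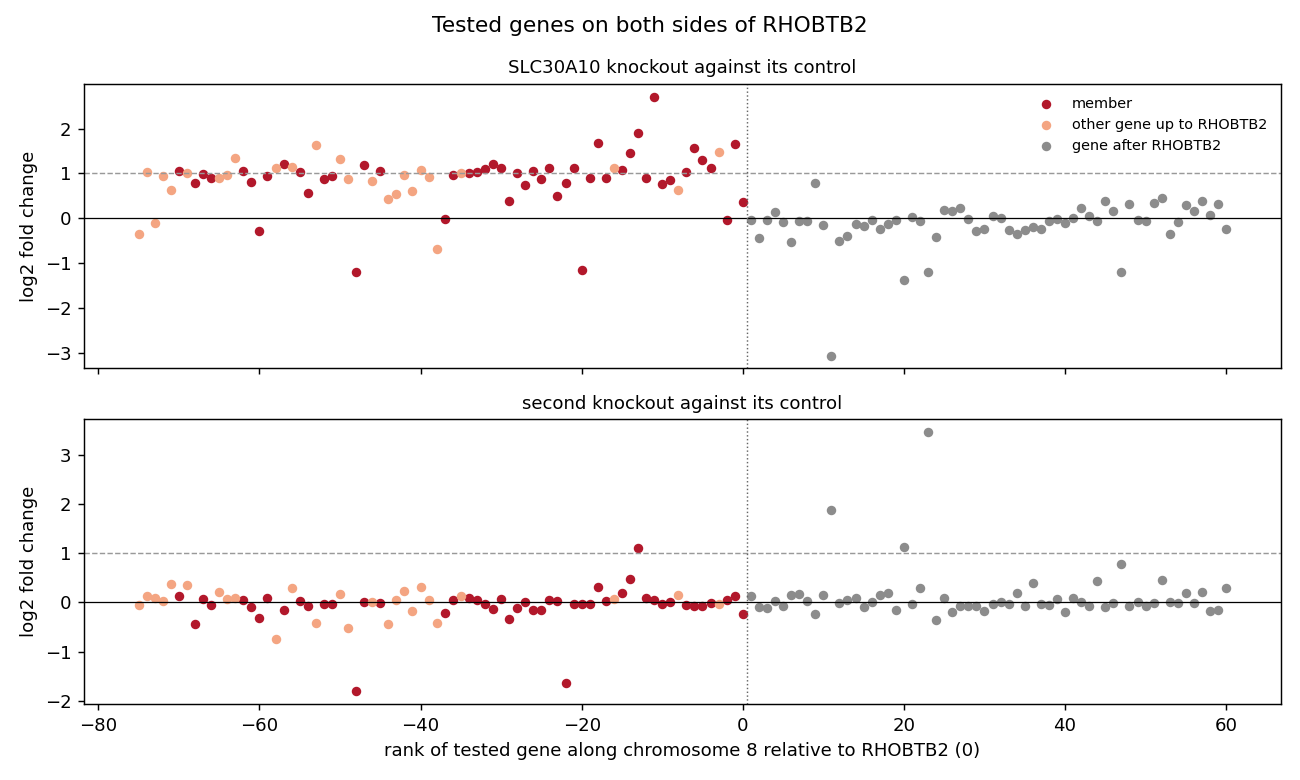
Log2 fold change of each tested gene by its rank from RHOBTB2 (0) along chromosome 8, in the SLC30A10 knockout (upper panel) and the second knockout (lower panel), with listed genes (members, CSGALNACT1 included), other genes up to RHOBTB2 and the first 60 genes after it in separate colours. In the upper panel most values up to RHOBTB2 lie near 1 (dashes) and most after it near 0, while in the lower panel most lie near 0 on both sides.

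The second knockout did not enter the choice of genes, so its tests are independent of the rule. There the stretch showed no common shift: the median log2 fold change of the 49 genes was -0.02, with the middle 50% between -0.08 and 0.05, against 0.00 over all tested genes. By edgeR's quasi-likelihood test 6 of the 49 passed (3 higher, 3 lower), which is 12.2%, where 13.7% of all tested genes passed (6.67% higher and 7.03% lower). This share is near the background and says nothing about the 8p genes as a group. Without overlap between libraries, 6 genes were above and 4 below, where 7.6% and 8.69% of all tested genes were.

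GATA4 fell the most in the second knockout. Its libraries held 0.561, 1.35, 0.242 and 0.242 CPM against 2.57, 1.58, 1.87 and 2.43 CPM in the second control set, which is 4 to 22 counts against 26 to 42. The groups did not overlap, and the log2 fold change was -1.81 ± 0.35 (edgeR adjusted p = 0.000453). Without second knockout replicate 2, the highest of the 4, it was -2.58 (edgeR adjusted p = 8.24e-06). In the SLC30A10 knockout GATA4 was at 0.808, 0.808, 0.491 and 1.43 CPM against 1.52, 1.76, 2.44 and 2.38 CPM, -1.19 ± 0.32. It was thus lower in each knockout than in its own control set, and the difference between both effects did not pass (0.62 ± 0.50, edgeR adjusted p = 0.369). HR rose in the second knockout, at 1.56, 1.66, 2.30 and 1.27 CPM against 0.367, 0.849, 0.904 and 1.03 CPM (1.10 ± 0.26, edgeR adjusted p = 0.00356). In the SLC30A10 knockout HR was higher still, at 2.67, 3.17, 2.51 and 2.86 CPM against 0.975, 0.607, 0.549 and 0.854 CPM, a log2 fold change of 1.90 ± 0.24. The difference between both effects on HR was 0.80 ± 0.37 and did not pass (edgeR adjusted p = 0.0985).

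The other 4 changes in the second knockout were smaller. PDGFRL fell, at 6.86, 6.07, 6.12 and 6.36 CPM against 8.44, 7.70, 7.59 and 8.57 CPM (-0.35 ± 0.09, edgeR adjusted p = 0.00985). NUDT18 rose, at 7.04, 8.03, 8.05 and 6.66 CPM against 4.47, 5.82, 5.36 and 5.71 CPM (0.48 ± 0.13, edgeR adjusted p = 0.00999). For both genes all 4 knockout libraries lay on the same side of all 4 controls. ASAH1 fell by 0.15 ± 0.04 on the log2 scale, at 53.6, 52.0, 52.9 and 53.6 CPM against 58.1, 57.5, 60.9 and 58.8 CPM (edgeR adjusted p = 0.0153). That call was lost without second control replicate 3 (adjusted p = 0.0718) or second knockout replicate 2 (0.0614) in edgeR. FAM160B2, a protein of endosome transport, rose by 0.20 ± 0.06, at 56.5, 62.1, 64.4 and 53.7 CPM against 51.5, 52.9, 52.7 and 49.6 CPM (edgeR adjusted p = 0.0286). Its call was lost without second control replicate 1 (0.0528) or 4 (0.0893), or second knockout replicate 2 (0.0896) or 3 (0.0993).

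The control sets, of the same cell line identifier, were compared with each other at the 8p genes. The comparison shares the SLC30A10 control libraries with the one that chose the genes. Of the 49 genes, 5 had more RNA in the first control set (that of SLC30A10) and 12 had more in the second, by edgeR's quasi-likelihood test, together 34.7%, where 39.3% of all tested genes passed (18.5% higher, 20.8% lower). This share is under the background and says nothing about the 8p genes as a group. The median log2 fold change, first minus second, was -0.02. Libraries of the first set lay above all of the second for 6 genes and below for 10, where 17.4% and 18.9% of all tested genes did. PINX1 was higher, at 32.7, 33.9, 38.3 and 33.0 CPM against 24.1, 20.4, 24.9 and 24.8 CPM (0.55 ± 0.07, edgeR adjusted p = 1.06e-06). TNKS, a poly-ADP-ribosylating enzyme of telomeres, was lower, at 109, 116, 102 and 121 CPM against 153, 154, 137 and 139 CPM (-0.38 ± 0.06, edgeR adjusted p = 9.99e-06). Neither gene's control sets overlapped.

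PSD3 was also lower, at 69.9, 68.3, 63.2 and 77.4 CPM against 91.0, 86.4, 87.0 and 80.5 CPM (-0.31 ± 0.06, edgeR adjusted p = 0.000127). POLR3D was higher, at 60.0, 59.4, 69.0 and 60.5 CPM against 54.8, 51.2, 54.7 and 52.7 CPM (0.22 ± 0.05, edgeR adjusted p = 0.00123). The gap of ZDHHC2, a palmitoyltransferase, was small but without overlap, at 75.6, 70.8, 68.0 and 67.8 CPM against 79.7, 77.5, 80.1 and 80.9 CPM (-0.17 ± 0.04, edgeR adjusted p = 0.0027). EGR3 had the widest gap, -1.27 ± 0.30 (edgeR adjusted p = 0.00148), from the levels given above.

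Testing both knockout effects against each other, which contains the comparison that chose the genes, gave 41 of the 49 genes a higher and LPL a lower effect in the SLC30A10 knockout by edgeR's quasi-likelihood test, where 31.3% of all tested genes passed (16.7% higher, 14.6% lower). The median difference was 0.95 on the log2 scale. The 7 genes that did not pass were CSMD1, PPP1R3B, GATA4, DLC1, SH2D4A, HR and BIN3. CSMD1 and HR had large differences (1.23 ± 0.53 and 0.80 ± 0.37) with wide errors, while BIN3 (-0.08 ± 0.11) had a small difference and a narrow error.

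Several 8p genes encode one subunit of a larger complex whose other subunits are encoded elsewhere. Across 7 such complexes, 62 other subunits were tested in the SLC30A10 knockout, 5 of them on chromosome 8 outside the stretch. The 62, called partners here, include some that take the place of the 8p subunit rather than join it, such as MAGT1 for TUSC3. By edgeR's quasi-likelihood test 5 were higher (8.06%, against 21.2% of all tested genes) and 18 lower (29.03%, against 20.2%), together 37.1% against 41.4%, and their median log2 fold change was -0.05. None of the 62 reached a 1.5-fold rise: their values ran from -0.32 to 0.43. The 8p subunits of the same complexes lay at 0.85 (POLR3D) to 1.13 (INTS10).

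For CCR4-NOT, 1 of 10 partners of CNOT7 was higher and 5 were lower, with CNOT6L, another deadenylase subunit, at 0.43 ± 0.07 and the scaffold CNOT1 at -0.18 ± 0.04. Among 13 Integrator partners of INTS10, 1 was higher and 5 lower, with INTS5 at -0.32 ± 0.07 and INTS9, which lies on 8p past the border, at -0.25 ± 0.05. Of 9 oligosaccharyltransferase partners of TUSC3, 1 was higher and 5 lower. The higher one was MAGT1, the paralogue that takes the place of TUSC3 in the complex, at 125 ± 8.21 CPM in the control set and 157 ± 2.04 in the knockout (0.33 ± 0.04), and the catalytic subunit STT3B had -0.25 ± 0.04. The partners of ATP6V1B2 in the V1 sector of the proton pump were 1 higher (ATP6V1G1, 0.25 ± 0.05) and 1 lower (ATP6V1D, -0.30 ± 0.06) of 10. For RNA polymerase III 2 of 10 were lower (POLR3B, -0.25 ± 0.07, and POLR3E, -0.14 ± 0.05). In ESCRT-I, MVB12B (0.25 ± 0.08) was the 1 of 7 that was higher. None of the 3 other calcineurin genes passed, with PPP3R1 at -0.09 ± 0.05 and PPP3CB, a catalytic subunit like PPP3CC, at -0.05 ± 0.05.

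**Figure D5:**
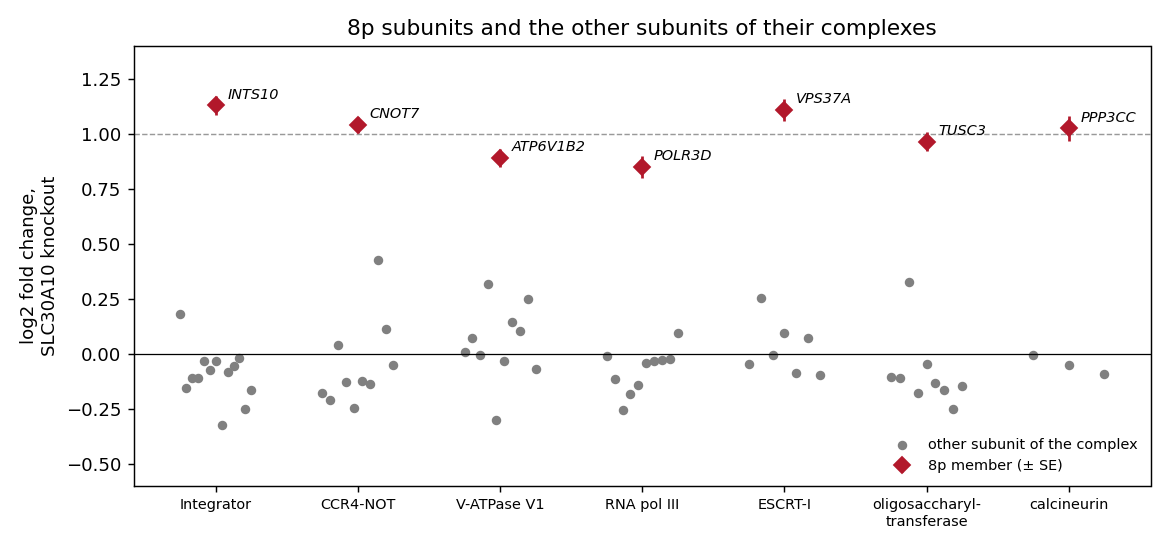
Log2 fold change in the SLC30A10 knockout of the 8p subunit and of the other tested subunits of 7 complexes. The 8p subunits lie at 0.85 to 1.13 and the other subunits between -0.32 and 0.43.

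The 11 listed genes with a mean under 10 counts were CLN8, ANGPT2, CSGALNACT1, SLC18A1, GFRA2, DOK2, NPM2, FGF17, PHYHIP, PIWIL2 and PEBP4, and 4 of these had a mean under 1. SLC18A1, the vesicular monoamine transporter of endocrine cells, had 0 or 1 count in every library, so a 2-fold step was not detectable there. FGF17, a fibroblast growth factor, had 5 to 10 counts in the SLC30A10 knockout and 0 to 3 in the other 12 libraries. PIWIL2, of the piRNA pathway, had 5 to 8 counts in the SLC30A10 knockout, 2 to 5 in its control set, 2 to 4 in the second knockout and 0 or 1 in the second control set. CSGALNACT1, a chondroitin sulfate enzyme, was the 1 of the 11 that entered the test. It fell in the second knockout, with 2 to 4 counts against 7 to 12 (-1.65 ± 0.41, edgeR adjusted p = 0.00654), and had 6 to 15 counts in the SLC30A10 knockout against 4 to 9 in its control set. CLN8, a protein of the endoplasmic reticulum mutated in a lysosomal disease, had 0 to 3 counts under its own symbol. A second, numbered entry of the same symbol went from 22.2 ± 0.955 to 41.7 ± 2.71 CPM, a log2 fold change of 0.91 ± 0.07, and which of both holds the gene's reads is not given in the sources used here.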

How the data were processed

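Whole-number counts per gene symbol were deposited by the authors for 16 HAP1 libraries, along with a normalized signal table. The deposited signal equals the counts of a library times a constant and served as an alternative scaling. The submitters' processing notes name HISAT2, featureCounts, DESeq2 and the builds hg38 and GRCh38, with no versions; annotation and use of strand are not given in the sources used here. The gene of the second knockout is not reported here. Counts were fitted with edgeR 4.0.16 in R 4.3.3: a filter (minimum count 10, minimum total 15) left 15569 genes, scaling was by trimmed mean of M-values, all 16 libraries had 1 mean per group, and quasi-likelihood F tests were adjusted by Benjamini-Hochberg (threshold 0.05). The script was tested on simulated data. CPM are counts per 1000000 of the scaled library size, and log2 fold changes are ± SE. Positions came from RefSeq GRCh38.p14, which placed 60 of 60 listed genes and 91.1% of tested genes, and exon lengths from GENCODE. DESeq2 1.42.0, other scalings, filters, thresholds, a replicate block, pooled controls and leaving out each library were tried. The genes, roles, complexes, and the rule for genes with per-library values (5 highest and 5 lowest in the SLC30A10 comparison with a mean of 50 counts, 2 highest per kb in each role, up to 6 with the smallest adjusted p in the other comparisons) were chosen with earlier results of these data known. PDGFRL, SH2D4A and the remaining 8p genes are named as list members. Sequences were not used here.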

Additional observations from a re-analysis of the deposited data

Results flagged for a closer look

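Libraries far from the other 3 of their group were looked for in 140 sets of 4 libraries, each a gene in a group, and 2 were found, where chance gives about 7 (1 in 20). For PPP3CC, replicate 4 of the SLC30A10 control set was the highest, at 29.8 CPM beside 27.3 CPM in each of the other 3, a gap of 0.988 of the range. For POLR3D, replicate 3 of the SLC30A10 control set was the highest, at 69.0 CPM beside 59.4 to 60.5 CPM, a gap of 0.885 of the range. Both lay far below the SLC30A10 knockout libraries of the same genes. The effects of both knockouts differed for 42 of the 49 genes by edgeR's quasi-likelihood test of the difference, 41 of them more positive in the SLC30A10 knockout, and that test contains the comparison on which the genes were chosen.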

How the results depend on the processing

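Replicate numbers in the titles did not pair libraries: same-numbered libraries correlated at -0.10 to 0.01 in the SLC30A10 comparison and at -0.05 to 0.18 in the second. With the replicate block, 46 of the 49 genes were called in the SLC30A10 comparison, 6 in the second, 16 between control sets, 43 for the difference of both effects, and 24 partner genes. DESeq2 gave 45, 6, 15, 42 and 23. With both control sets pooled as the reference, 15 genes were called in the second comparison in place of 6, and the median turned from -0.02 to 0.0084; the cause was not tested. Between control sets, 10 genes passed an adjusted p under 0.01 in place of 17, by the stricter threshold alone, and with a mean of at least 50 counts the median was -0.0065. Leaving out 1 library at a time gave medians of 0.983 to 1.01 in the SLC30A10 comparison, -0.0214 to 0.00549 in the second and -0.0282 to -0.00353 between control sets. It gave 4 to 7 calls in the second comparison, fewest without second knockout replicate 2, and 12 to 16 between control sets. DLC1 ranged from -0.0568 to 0.0192 and BIN3 from -0.0732 to 0.0179, so their sign is not determined. Of 37 values for named genes, 32 kept sign and call under every alternative run; the others were DLC1, BIN3, PPP1R3B, ASAH1 and FAM160B2. Reading CLN8 from its numbered entry, chosen after seeing the data, gave 47 calls of 50 genes. Genes under 10 counts are limited by depth.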

Other observations

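Subunits of RNA polymerase III differed between the control sets, which share a cell line identifier. Of 10 specific subunits other than the 8p gene POLR3D, 8 had more RNA in the first control set (that of SLC30A10) and 1 had more in the second by edgeR's quasi-likelihood test, with a median log2 fold change of 0.33, where 18.5% of all tested genes were higher and 20.8% lower. POLR3K was at 53.5 ± 4.47 against 40.0 ± 3.49 CPM (0.42 ± 0.07), each n = 4. POLR3G was at 74.8 ± 3.92 against 52.2 ± 4.28 CPM (0.52 ± 0.09), while its paralogue POLR3GL, which takes the same place in the enzyme, was at 16.7 ± 0.533 against 21.2 ± 2.67 CPM (-0.34 ± 0.08). POLR3D itself had 0.22 ± 0.05. In the second knockout none of the 10 partners passed the threshold.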
